A study of Mus musculus with 10 samples.

Results

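The 10 genes described here encode transcription factors that set up and keep the endothelial state: the SoxF factors Sox7, Sox17 and Sox18, the ETS factors Erg, Fli1, Ets1, Ets2 and Elk3, and the haemato-endothelial factors Tal1 and Lmo2. They were chosen by gene symbol from the 21612 genes measured, with earlier results of these data known. Each symbol had 1 line, and all 10 passed the filter on low values that left 15211 genes for testing. The study asked how genes of the blood-brain barrier are set during development and kept in the adult, with attention to Wnt signalling and histone deacetylases (HDACs). Messenger RNA was sequenced from 10 libraries of wild-type (WT) primary mouse cortical endothelial cells (ECs). The MS-275 group (n = 2) held adult ECs given 10 µM of MS-275, a small molecule that inhibits class I HDACs. The Wnt3a group (n = 2) held adult ECs given Wnt3a, a secreted Wnt ligand, at a concentration the labels give as 200 nM and the methods as a mass per volume. The adult control group (n = 3) held adult ECs labelled as controls, and the E13.5 group (n = 3) held ECs of the embryonic stage E13.5, with no treatment in the labels. The adult cells came from male C57BL/6J mice and the sex of the embryos was not determined. Per the methods, ECs of 1 litter were combined into 1 replicate. The cells were expanded on collagen and used at the second passage, so every group is a cultured model and not freshly sorted tissue.

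Values are the authors' normalised counts, reads divided by a size factor of each library, and the libraries held 21116014 to 31733768 reads on genes. Differences are of log2(normalised count + 1) and are given with their SE. A gene was called where the adjusted p of limma, a linear model fitted over all genes, was under 0.05 and its difference was above 0.2 in size. Markers of the labelled cell type differed widely between groups. Pecam1, the CD31 surface protein, stood at 4762 and 2551 in the MS-275 libraries and 53472 and 57711 in the Wnt3a libraries. It stood at 74703, 81545 and 58849 in the adult control libraries and at 45.3, 62.4 and 70.6 in the E13.5 libraries. Cdh5, VE-cadherin, was likewise at 10931 and 2808 in the MS-275 libraries, the lowest of the adult ones, and at 108, 57.2 and 59.2 in the E13.5 libraries. The E13.5 libraries therefore nearly lacked these defining markers. All 20 genes of endothelial identity tested were called lower at E13.5 than in adult control. Their summed level was 2172 to 3951 at E13.5 and 320934 to 448325 in adult control. Some were less scarce at E13.5, among them Kdr (620 to 998) and Flt1 (756 to 831). Per the methods, the cultures were judged highly pure by CD31 and isolectin B4. The leukocyte marker Ptprc stayed at or under 33.8 in every library. The summed level of 15 genes of neurons and neural progenitors was 1840 to 4847 in the adult control libraries and 26317 to 35677 in the E13.5 libraries, of which Nes, an intermediate filament gene also found outside neural cells, made up 1825 to 4834 and 11190.4 to 18239. That of 10 pericyte and smooth muscle genes was 87.6 to 104 in adult control and 30991 to 50351 in E13.5. Most of the E13.5 sum came from Acta2 (19743 to 32866) and Tagln (9755 to 14837). All 8 tested genes of this list were called lower in adult control than at E13.5, where 31.2% of all tested genes were. Kcnj8 was at 0 and Abcc9 at or under 1.91 in every E13.5 library. In bulk RNA, fewer cells of a type and less RNA per cell cannot be told apart. The adult libraries also fell into a pair of sets, seen in the data and named by no label: adult control 1, adult control 2, Wnt3a 1 and MS-275 1 on one side, and adult control 3, Wnt3a 2 and MS-275 2 on the other. Each treated library was placed with the control it correlated with best (r = 0.968 for Wnt3a 1 with adult control 1 and 0.990 for Wnt3a 2 with adult control 3, across genes, which are not replicates). The MS-275 placements rested on smaller margins. MS-275 1 had r of 0.904, 0.902 and 0.890 with adult control 1, 2 and 3, and MS-275 2 had 0.858, 0.856 and 0.873. Treatment values are therefore given within each set as well. This grouping was made after seeing the data.

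SoxF, ETS and Tal1-Lmo2 factors act as a network in endothelial development. ETS proteins bind a GGAA core in most known endothelial enhancers, and SoxF proteins bind beside them at genes of arterial and venous fate. Tal1, a basic helix-loop-helix factor, is joined by Lmo2, a LIM-only bridging protein that does not bind DNA itself, to GATA factors at genes shared by blood and endothelium. Erg and Fli1 maintain junctions and quiescence in mature vessels, and in the brain Sox17 acts with Wnt/β-catenin signalling in the forming barrier.

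All 10 members had the same direction of difference for MS-275 against adult control, and likewise for adult control against E13.5. They did not for Wnt3a against adult control. The members also share binding partners, and the start regions of those present in the RefSeq promoter table are shown. That table (GRCm38.p6) held 7 entries for 4 members, and the entry with the most upstream start is printed for each: 250 bases before the start site, the start base and the next 49 downstream, 5′ to 3′ on the gene's strand, with the ETS core (GGAA, or TTCC for the other strand) in capitals. They lie at chr4:115056176-115056475 (Tal1, plus strand), chr10:93311110-93311409 (Elk3, minus), chr16:95586544-95586843 (Erg, minus) and chr16:95702157-95702456 (Ets2, plus).
Tal1: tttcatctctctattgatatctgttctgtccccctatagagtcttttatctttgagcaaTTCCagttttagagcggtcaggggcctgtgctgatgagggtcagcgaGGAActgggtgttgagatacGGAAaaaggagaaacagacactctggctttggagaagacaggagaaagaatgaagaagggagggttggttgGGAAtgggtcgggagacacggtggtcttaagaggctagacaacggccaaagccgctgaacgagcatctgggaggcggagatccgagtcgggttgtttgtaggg
Elk3: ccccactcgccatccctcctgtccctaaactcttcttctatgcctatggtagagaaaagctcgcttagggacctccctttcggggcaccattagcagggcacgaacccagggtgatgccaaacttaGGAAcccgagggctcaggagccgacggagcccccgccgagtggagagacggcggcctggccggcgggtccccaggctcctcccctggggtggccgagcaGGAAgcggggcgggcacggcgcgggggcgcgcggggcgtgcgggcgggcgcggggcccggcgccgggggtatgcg
Erg: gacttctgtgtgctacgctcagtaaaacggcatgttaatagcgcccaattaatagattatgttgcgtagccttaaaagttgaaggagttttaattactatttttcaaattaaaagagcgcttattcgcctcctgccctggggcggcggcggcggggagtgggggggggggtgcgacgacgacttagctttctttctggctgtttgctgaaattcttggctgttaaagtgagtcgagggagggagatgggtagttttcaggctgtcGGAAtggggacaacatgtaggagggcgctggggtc
Ets2: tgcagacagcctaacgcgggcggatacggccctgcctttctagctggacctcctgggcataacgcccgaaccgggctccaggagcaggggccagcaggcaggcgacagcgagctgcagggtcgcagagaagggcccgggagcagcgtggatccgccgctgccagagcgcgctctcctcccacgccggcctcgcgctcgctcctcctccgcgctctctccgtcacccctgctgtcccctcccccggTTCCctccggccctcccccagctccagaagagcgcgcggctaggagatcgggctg

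The Tal1 window held 4 ETS cores, the Elk3 window 2, and the Erg and Ets2 windows 1 each. The further start of Tal1 had 4, and those of Erg had 4 and 2. Of 32851 promoter windows of the same length in the table, 96.0% held at least 1 such core and the median was 3, so these numbers do not set the members apart. The longer ETS consensus CCGGAAGT (3.89% of all windows), the SOX core ACAAT (31.0%), the Tal1 E-box CAGATG (17.1%) and the GATA motif AGATAA (11.2%) were also searched on both strands; CCGGAAGT contains the GGAA core. Of these the Tal1 window held 1 CAGATG and 1 AGATAA, and the other 3 printed windows held none. Among the further starts, 1 Erg window (chr16:95459299-95459598) held 2 ACAAT and 1 AGATAA, and the other further windows held none of the 4 motifs. A match is a string of letters and not a measured site. In the mm10 annotation 4 members are neighbours. Fli1 (chromosome 9, 32422204 to 32542861, minus strand) lies 93.4 kb from Ets1 (chromosome 9, 32636221 to 32757820, plus strand). Erg (chromosome 16, 95359169 to 95586593, minus strand) lies 115 kb from Ets2 (chromosome 16, 95702075 to 95721051, plus strand). There are 0 protein-coding genes between the members of each pair. Elk3 (chromosome 10, 93247414 to 93311135, minus strand) shares 316 exon bases with Cdk17 on the opposite strand. The sources used here do not say whether strand was used in counting, so a part of the Elk3 count could come from Cdk17.

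The SoxF genes, whose products act together in vessel and lymphatic formation, divided into 1 gene present everywhere and 2 with wide ranges. Sox7 had normalised counts of 587 and 389 in the MS-275 libraries, 1859 and 898 in the Wnt3a libraries, 1302, 1222 and 984 in the adult control libraries and 318, 362 and 296 in the E13.5 libraries. All 7 adult libraries lay above the 3 E13.5 libraries, and the MS-275 libraries lay between the rest of the adult libraries and E13.5. Sox17, a factor of arterial identity, had 51.2 and 101 in the MS-275 libraries, 500.1 and 2841 in the Wnt3a libraries, 2471, 2782 and 2343 in the adult control libraries and 1.59, 1.73 and 1.91 in the E13.5 libraries, the last from 2 reads in each library. Its MS-275 libraries and Wnt3a 1 lay under all the control libraries, while Wnt3a 2 lay above them. Sox18, mutated in the ragged mouse with vascular and lymphatic defects, had 41.8 and 13.1 in the MS-275 libraries, 131 and 2031 in the Wnt3a libraries, 2039, 1977 and 2563 in the adult control libraries and 4.77, 13.9 and 3.82 in the E13.5 libraries. Wnt3a 1 stood 15.4-fold under the mean of the 2 controls of its set, and the lower MS-275 library lay within the E13.5 range.

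Erg, the ETS factor most restricted to endothelium among these, had normalised counts of 3799.9 and 1075 in the MS-275 libraries, 15234 and 11613 in the Wnt3a libraries, 13086, 14154 and 12749 in the adult control libraries and 0, 6.94 and 1.91 in the E13.5 libraries. The E13.5 values rest on 10 reads over 3 libraries, whereas the MS-275 libraries, though lower than the other adult libraries, still lay far above them. Averaged per kb of exon, Erg was the highest member in the Wnt3a and adult control groups, although with the length of the longest transcript Ets2 passed it in adult control. Its close relative Fli1 had 97.2 and 41.5 in the MS-275 libraries, 1543 and 6887 in the Wnt3a libraries, 2982, 2778 and 7286 in the adult control libraries and 16.7, 8.67 and 13.4 in the E13.5 libraries. Fli1 was higher in adult control 3 and Wnt3a 2 than in the other control and Wnt3a libraries, and lowest in MS-275 among adult cells. Ets1, an ETS factor of endothelium and lymphocytes, had 1536 and 2108 in the MS-275 libraries, 2922 and 5259 in the Wnt3a libraries, 5086, 5007 and 4802 in the adult control libraries and 1696, 1756 and 1825 in the E13.5 libraries, so that the MS-275 and E13.5 ranges overlapped.

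Ets2, a widely expressed ETS factor downstream of Ras signalling, had normalised counts of 1881 and 2072 in the MS-275 libraries, 4904 and 10584 in the Wnt3a libraries, 20404, 21641 and 14515 in the adult control libraries and 634, 586 and 529.6 in the E13.5 libraries. It was the only ETS member with both Wnt3a libraries under all 3 controls. Elk3, a ternary complex factor that represses its targets until phosphorylated, had 6314 and 2695 in the MS-275 libraries, 11956 and 11237 in the Wnt3a libraries, 13186, 12955 and 10788 in the adult control libraries and 4141, 3107 and 3028 in the E13.5 libraries. Elk3 held the highest level per kb of exon among the members in the MS-275 and E13.5 libraries, at 990 and 753 on average.

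Tal1, needed for blood and for endothelial maturation, had normalised counts of 252 and 50.3 in the MS-275 libraries, 1738 and 1152 in the Wnt3a libraries, 1499, 1466 and 1091 in the adult control libraries and 26.2, 8.67 and 0 in the E13.5 libraries, with no read in 1 E13.5 library. Lmo2, its bridging partner, had 54.6 and 24.0 in the MS-275 libraries, 95.9 and 2109 in the Wnt3a libraries, 2696, 3134 and 2203 in the adult control libraries and 58.0, 72.8 and 84.0 in the E13.5 libraries. Both MS-275 libraries lay under all 3 E13.5 libraries for Lmo2, and Wnt3a 1 lay just above them.

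**Figure D1:**
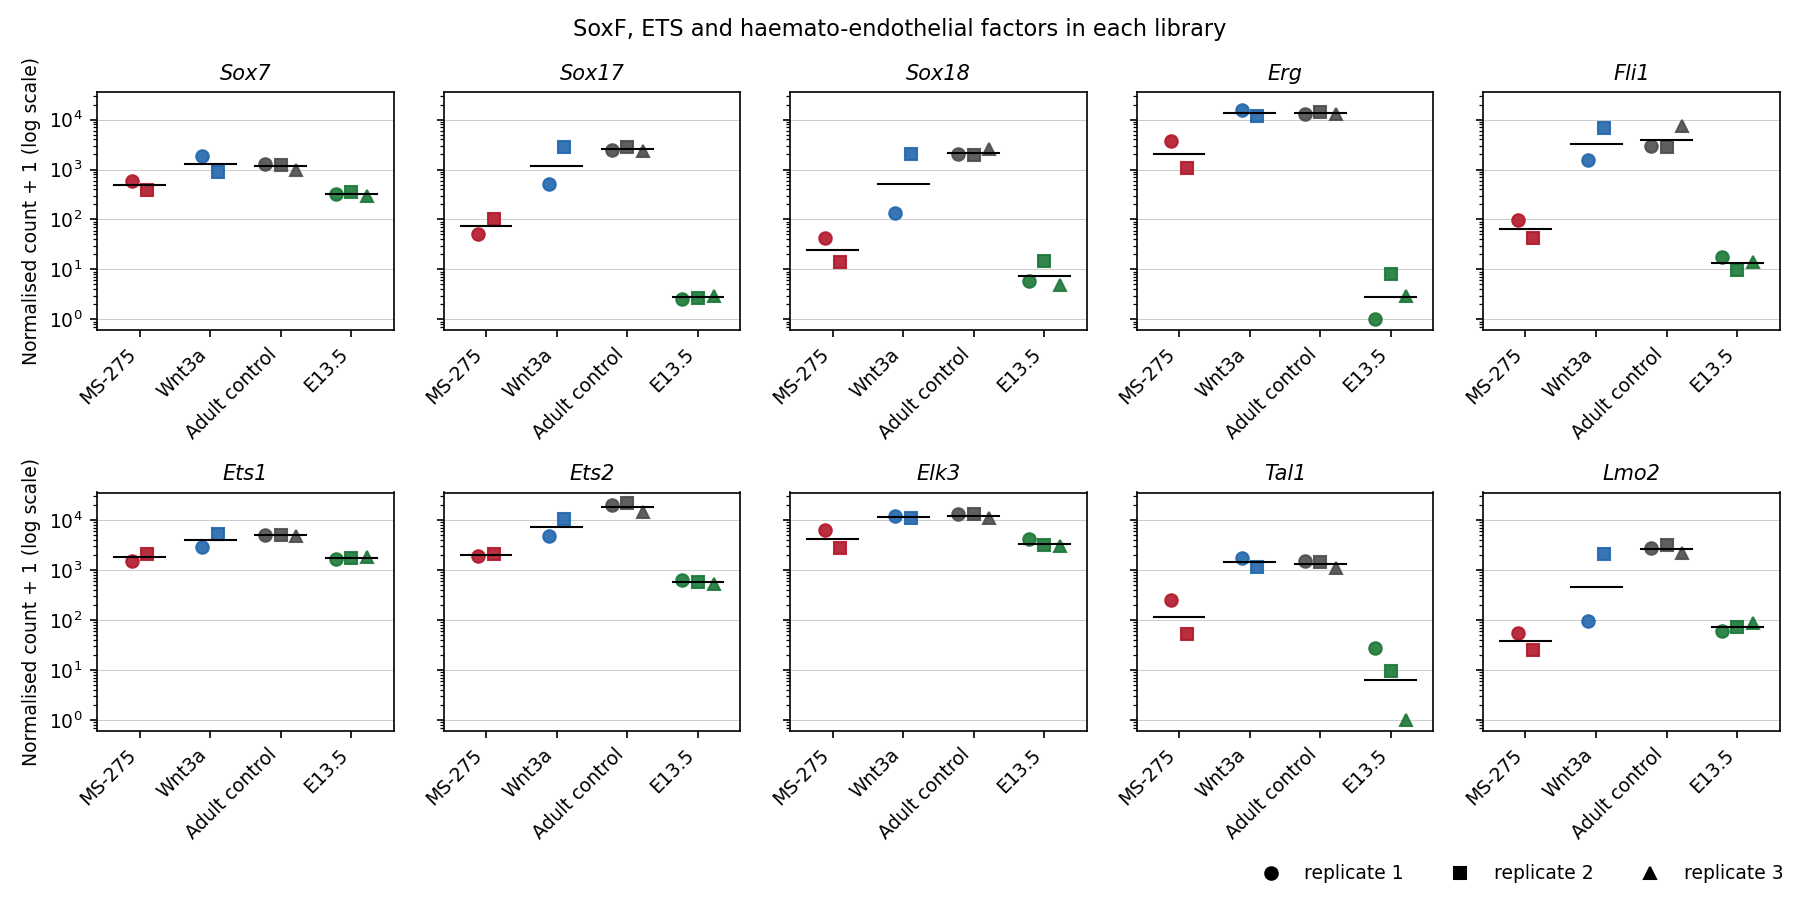
Normalised count + 1 on a log axis for each member and library, with a point for each replicate and a line at the mean of the log2 values of each group. Every member is higher in the 3 adult control libraries than in the 3 E13.5 libraries, and Sox17, Sox18 and Lmo2 show Wnt3a 1 far under Wnt3a 2.

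In MS-275 treated adult ECs every member fell relative to adult control. By limma 10 of 10 were called lower, where 17.4% of all tested genes were called lower, 21.8% higher and 39.1% in either direction. The groups did not overlap for 10 of 10, where this held for 57.3% of all genes. The median log2 difference was -3.39 over the members and 0.15 over all genes. The deepest falls by limma were those of Sox18 (-6.47 ± 1.04, adjusted p = 0.00173), Lmo2 (-6.15 ± 1.04, adjusted p = 0.00212), Fli1 (-5.92 ± 0.69, adjusted p = 4.40e-04) and Sox17 (-5.12 ± 0.64, adjusted p = 5.86e-04). Their means were 79.9-fold, 68.1-fold, 62.7-fold and 33.4-fold lower with MS-275. Sox18 averaged 27.5 ± 20.3 with MS-275 (SD, n = 2) and 2193 ± 322 in adult control (SD, n = 3). The next were Tal1 (-3.55 ± 1.21), Ets2 (-3.23 ± 0.31) and Erg (-2.72 ± 0.78), with adjusted p of 0.0452, 2.03e-04 and 0.0236. The smallest falls were those of Elk3 (-1.57 ± 0.32), Ets1 (-1.46 ± 0.24) and Sox7 (-1.28 ± 0.32), with adjusted p of 0.00537, 0.00199 and 0.0136. These are 2.73-fold, 2.72-fold and 2.40-fold falls of the mean. Among the neighbouring genes the log2 difference was -5.92 for Fli1 beside -1.46 for Ets1, and -2.72 for Erg beside -3.23 for Ets2. The difference within a pair was not tested.

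Within the sets all 10 members lay more than 1 log2 unit under their own controls with both MS-275 libraries, a distance passed by 16.3% and 20.2% of all tested genes. Tal1 differed by -2.55 in the set of MS-275 1 and -4.41 in that of MS-275 2, and Erg by -1.84 and -3.57. MS-275 1 held the higher level of the 2 MS-275 libraries for 7 of 10 members, the exceptions being Sox17, Ets1 and Ets2. Leaving out a library or changing a setting cost the calls of 4 members by limma. Tal1 was not called without MS-275 2 (adjusted p = 0.293), adult control 1 (0.102), adult control 2 (0.098) or adult control 3 (0.0634). Erg was not called without MS-275 2 (adjusted p = 0.203), adult control 1 (0.0573) or adult control 2 (0.0586), and Sox7 not without MS-275 2 (0.112). At a pseudocount of 0.5 Erg (adjusted p = 0.0526) and Tal1 (0.0798) were not called, on adult libraries alone Sox7 was not (0.0572), and on the compared groups alone Elk3 was not (0.0612). Without MS-275 2 the log2 difference was -2.40 for Tal1, -1.81 for Erg and -0.96 for Elk3. With MS-275 2 as the lone treated library, assumed to vary like the other groups, it was -3.63 for Erg and -2.19 for Elk3.

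Endothelial markers fell with the members: 16 of 20 genes of endothelial identity were called lower, where 17.4% of all genes were, and 0 higher. Their median log2 difference was -3.87. Their summed level was 42625 to 63525 with MS-275 and 320934 to 448325 in adult control. By limma Pecam1 fell 19.6-fold (-4.35 ± 0.29, adjusted p = 6.37e-05). Sox18, Lmo2, Fli1 and Sox17 lay deeper than this marker and the other 6 members did not. Within the identity list, with its median of -3.87, some genes also fell further than Pecam1. Among them were Icam2 (-7.05), Clec14a (-6.51), Emcn (-6.41) and Robo4 (-6.23). The pericyte list summed to 560 to 813 with MS-275 and 87.6 to 104 in adult control (3 of 8 tested genes called higher), and the fibroblast list to 946 to 1302 with MS-275 and 158 to 260 in adult control (4 of 8). The pericyte markers Kcnj8 and Abcc9 and the fibroblast markers Col3a1, Lum and Dpt were at 0 in both MS-275 libraries. Of 15 genes of neurons and neural progenitors, 5 were called higher and 0 lower with MS-275 (Snap25, Tubb3, Map2, Stmn2 and Pax6). Of 8 glial genes 3 were higher (Slc1a2, Aldh1l1 and Fabp7) and 1, Gja1, lower. Over all genes 21.8% were called higher. Some of these calls rest on few reads: Pax6 averaged 2.49 with MS-275 and 0.329 in adult control, Fabp7 3.89 and 0, and Map2 15.2 and 0.578. The other genes called higher averaged 19.3 (Aldh1l1) to 451 (Tubb3) with MS-275. The neural list summed to 3000.1 to 5502 with MS-275 and 1840 to 4847 in adult control, and Sox2, Dcx, Neurod1 and Hes5 were at 0 in both MS-275 libraries. The haemoglobin gene Hba-a1 had 252 and 244 with MS-275 and 0 in all adult control libraries. The part of other cell types in these falls was not tested.

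**Figure D2:**
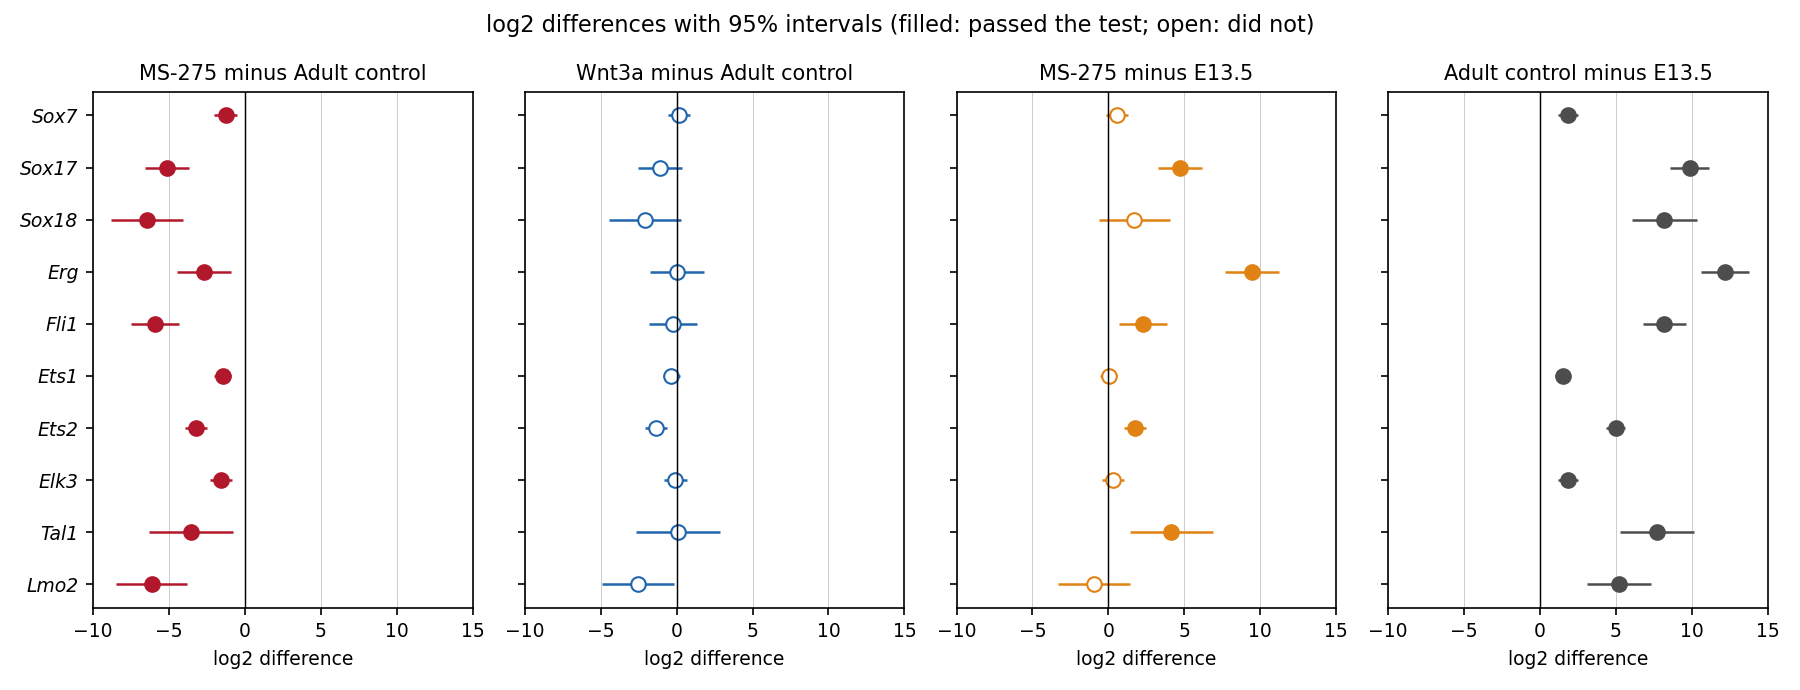
Difference of log2(normalised count + 1) for each member in 4 comparisons, as points with 95% intervals from limma, filled where the member passed the test. All 10 points are filled and negative for MS-275 against adult control, all 10 are filled and positive for adult control against E13.5, and none is filled for Wnt3a against adult control.

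With Wnt3a no member was called against adult control. Limma gave 0 of 10, where 0% of all genes were called, and edgeR and DESeq2 gave 0 of 10 as well. The groups did not overlap for 2 of 10 members and for 16% of all genes. At an unadjusted p under 0.05, limma gave Ets2 and Lmo2 (2 of 10, where 6.02% of all genes passed), and edgeR and DESeq2 gave 1 of 10 each, Ets2. The log2 difference was -2.55 ± 1.04 for Lmo2 (95% interval -4.90 to -0.20) and -2.08 ± 1.04 for Sox18 (-4.44 to 0.29). It was -1.37 ± 0.31 for Ets2 (-2.07 to -0.67) and -1.08 ± 0.64 for Sox17 (-2.54 to 0.38). The other 6 lay between -0.34 (Ets1) and 0.15 (Sox7), and the median was -0.30 over the members and 0 over all genes. The intervals of Erg (-1.78 to 1.78) and Tal1 (-2.67 to 2.83) were wide. They use a spread estimated over all 10 libraries, including the E13.5 libraries with few reads and the MS-275 libraries. In the compared libraries Erg was 15234 and 11613 with Wnt3a and 13086, 14154 and 12749 in adult control. Tal1 was 1738 and 1152 with Wnt3a and 1499, 1466 and 1091 in adult control.

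The 2 Wnt3a libraries did not behave alike, and 4 of the members passed 1 log2 unit in the set of Wnt3a 1 alone. In the set of Wnt3a 1, Lmo2 was 30.4-fold lower than its controls (log2 difference -4.91), Sox18 15.4-fold (-3.93), Sox17 5.25-fold (-2.39) and Ets2 4.29-fold (-2.10). Here 4 of 10 members lay more than 1 log2 unit lower, where 6.97% of all genes did. In the set of Wnt3a 2 all 10 members lay within 0.46 log2 units of adult control 3, with Ets2 at -0.46 and Lmo2 at -0.06. Of all genes, 4.15% lay more than 1 log2 unit lower in this set and 3.17% more than 1 higher. Adult control 3 was chosen as the control closest to Wnt3a 2, which favours small differences here. Fli1, Ets1 and Sox7 differed by -0.90, -0.79 and 0.56 in the set of Wnt3a 1 and -0.08, 0.13 and -0.13 in the other. Erg, Elk3 and Tal1 differed by 0.16, -0.13 and 0.23 in the set of Wnt3a 1 and -0.13, 0.06 and 0.08 in the other. Pecam1 was 53472 and 57711 in the Wnt3a libraries. The endothelial identity list summed to 270650.2 in Wnt3a 1 and 313567 in Wnt3a 2, against 320934 to 448325 in adult control. The list of neurons and neural progenitors summed to 12320 in Wnt3a 1 and 2349 in Wnt3a 2, against 1840 to 4847 in adult control. Nearly all of this was Nes (12252 in Wnt3a 1 and 2331 in Wnt3a 2), and 7 of the 15 genes, Sox2, Dcx, Map2, Neurod1, Neurod2, Stmn2 and Hes5, were at 0 in both Wnt3a libraries. The part of other cell types in the divergence was not tested. Wnt3a 1 alone, assumed to vary like the other groups, gave limma calls for Lmo2 (-4.77, adjusted p = 0.0184) and Ets2 (-1.92, adjusted p = 0.0365). Without adult control 3 limma called Ets2 (-1.54, adjusted p = 0.0444). Whether the divergence belongs to the treatment or to 1 library cannot be told apart, since each set holds 1 Wnt3a library.

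**Figure D3:**
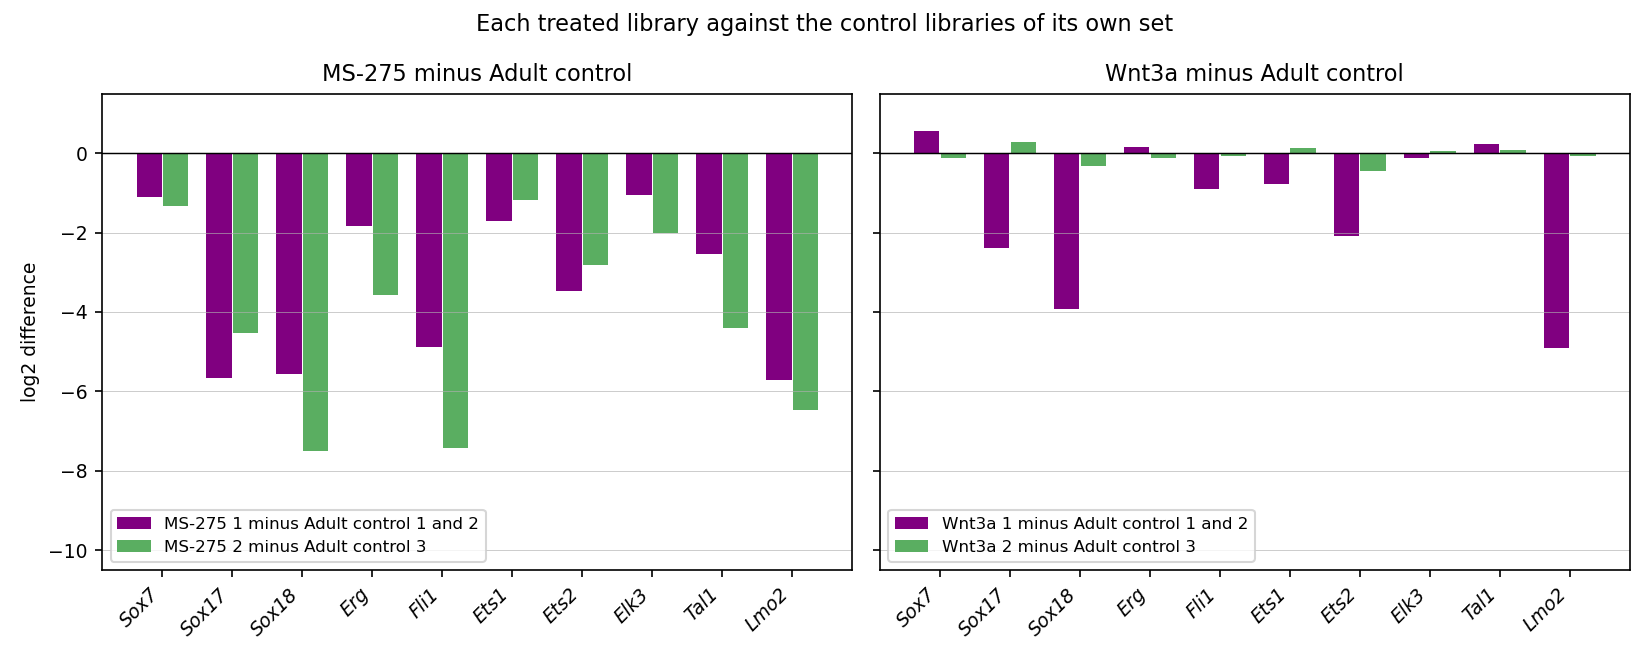
Bars give the log2 difference between each treated library and the adult control libraries of its own set (1 treated library per bar, no error bar and no test). All 20 MS-275 bars lie under -1, and for Wnt3a only the Sox17, Sox18, Ets2 and Lmo2 bars of Wnt3a 1 do.

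MS-275 was also set against Wnt3a. Here 9 of 10 members were called lower by limma, where 13.2% of all genes were called lower and 29.3% in either direction. They ran from Fli1 (-5.66 ± 0.76, adjusted p = 0.00135) to Ets1 (-1.12 ± 0.27, adjusted p = 0.0141). Tal1 was not called (-3.63 ± 1.33, adjusted p = 0.0709 by limma, 0.0432 by edgeR and 0.00785 by DESeq2). The groups did not overlap for 10 of 10 members and for 59.5% of all genes. This comparison rested on the spread borrowed from the other groups. Fitted on its own 4 libraries it gave 0 of 10 calls and 123 over all genes, without Wnt3a 2 it gave 4 and without MS-275 2 it gave 5. Lmo2 was 54.6 and 24.0 with MS-275 and 95.9 and 2109 with Wnt3a, where the values of the first set lay close and those of the second far apart.

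The comparison of adult control with E13.5 asks which factors differ between cells of a mature and of a forming barrier, with the marker values above as the limit on reading it. All 10 members were called higher in adult control, where 17.9% of all genes were called higher, 31.2% lower and 49.1% in either direction. The groups did not overlap for 10 of 10 members and for 62.5% of all genes. The median log2 difference was 6.46 over the members and -0.20 over all genes. The widest differences were those of Erg (12.19 ± 0.70, adjusted p = 1.50e-06), Sox17 (9.85 ± 0.57), Sox18 (8.19 ± 0.93), Fli1 (8.18 ± 0.62) and Tal1 (7.71 ± 1.08). These 5 stood at or under 26.2 normalised counts in every E13.5 library. Lmo2 (5.21 ± 0.93, adjusted p = 0.00151) and Ets2 (4.99 ± 0.28, adjusted p = 1.20e-06) followed, 37.4-fold and 32.3-fold higher in adult control. Elk3 (1.85 ± 0.29), Sox7 (1.84 ± 0.29) and Ets1 (1.50 ± 0.22) differed least, at 3.59-fold, 3.60-fold and 2.82-fold, with adjusted p of 6.70e-04, 7.27e-04 and 4.40e-04. All 10 calls held without any 1 library and under the other alternatives, but the size for genes with few reads at E13.5 depended on the setting. Over all alternatives the difference ran from 10.04 to 13.11 for Erg, from 7.75 to 10.86 for Sox17, from 7.01 to 10.04 for Sox18, from 7.44 to 10.41 for Fli1 and from 6.16 to 9.07 for Tal1. In each case the lowest came with a pseudocount of 10 and the highest after quantile normalisation. Leaving out 1 library gave 11.44 (without E13.5 1) to 12.93 (without E13.5 2) for Erg and 6.37 (without E13.5 3) to 8.75 (without E13.5 1) for Tal1. In both groups 1 pair of libraries was closer than the rest. Across genes, r was 0.993 for adult control 1 with 2, against 0.962 and 0.958 with adult control 3. It was 0.992 for E13.5 2 with 3, against 0.968 and 0.965 with E13.5 1. Leaving out 1 library of such a pair keeps its near copy, so it is a weak check. The p-values took all libraries as independent, so they could be too small. Endothelial identity genes were higher in 20 of 20 cases (median log2 difference 8.38), a wider gap than that of 8 members. The part of cell make-up in the members' differences was not tested.

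The MS-275 libraries lay near the E13.5 libraries for some members and far above them for others. This comparison shares its MS-275 libraries with the comparison of MS-275 with adult control. Limma called 5 of 10 higher with MS-275 than at E13.5, where 21.1% of all genes were called higher and 52.2% in either direction, and 0 lower, where 31.1% were. The groups did not overlap for 7 of 10 members and for 73.8% of all genes, and the median log2 difference was 1.74 over the members and -0.16 over all genes. The called members were Erg (9.47 ± 0.78), Sox17 (4.73 ± 0.64), Tal1 (4.15 ± 1.21), Fli1 (2.26 ± 0.69) and Ets2 (1.76 ± 0.31), with adjusted p of 2.26e-05, 3.67e-04, 0.0187, 0.0231 and 0.00146. For the other 5 the 95% intervals of the difference were -0.52 to 0.58 (Ets1), -0.45 to 1.01 (Elk3), -0.18 to 1.29 (Sox7), -0.65 to 4.09 (Sox18) and -3.30 to 1.41 (Lmo2). A test that misses the threshold does not show that the levels were equal. Without MS-275 1 limma no longer called Fli1 (adjusted p = 0.164) or Tal1 (0.149). The Fli1 call was also lost without E13.5 2 (adjusted p = 0.0705) and without E13.5 3 (0.0523), and without MS-275 2 Elk3 was called as well (0.90, adjusted p = 0.0179). Fli1 was not called at a pseudocount of 10 (adjusted p = 0.0515), nor Tal1 on the compared groups alone (0.059), while after quantile normalisation Sox18 (0.0115) and Sox7 (0.0136) were called higher with MS-275.

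The make-up of the SoxF family differed between libraries along with its level. Per kb of exon, Sox18 was the leading SoxF gene in Wnt3a 2, at 59.1% of the summed level, and in adult control, at 56.1% to 66.7%. Sox7 led in the other libraries. Its share was 83.0% and 80.2% in MS-275, 75.2% in Wnt3a 1 and 12.8% in Wnt3a 2, 12.6% to 18.2% in adult control and 92.5% to 97.0% at E13.5. As a share of SoxF reads without the length correction, Sox7 took 74.7% (95% exact Clopper-Pearson interval 72.6 to 76.7) in Wnt3a 1 and 15.6% (14.5 to 16.6) in Wnt3a 2. These intervals cover counting error only. The summed SoxF level per kb was 214 and 147 in MS-275, 749 and 2121 in Wnt3a, 2171, 2174 and 2371 in adult control and 99.6, 119 and 92.4 at E13.5.

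The Tal1-Lmo2 pair shifted in a like way in 1 Wnt3a library. Tal1 made up 69.6% and 50.8% of the summed level per kb in MS-275, 90.0% in Wnt3a 1 and 21.3% in Wnt3a 2, and 18.8% to 21.6% in adult control. At E13.5 its share was 18.3%, 5.56% and 0%, the last from 0 of 88 reads of the pair, which allows a read share of up to 4.11% (upper bound of the 95% exact interval, counting error only). Lengths taken from the longest transcript in place of all exons gave Tal1 88.0% in Wnt3a 1 and 18.1% in Wnt3a 2.

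**Figure D4:**
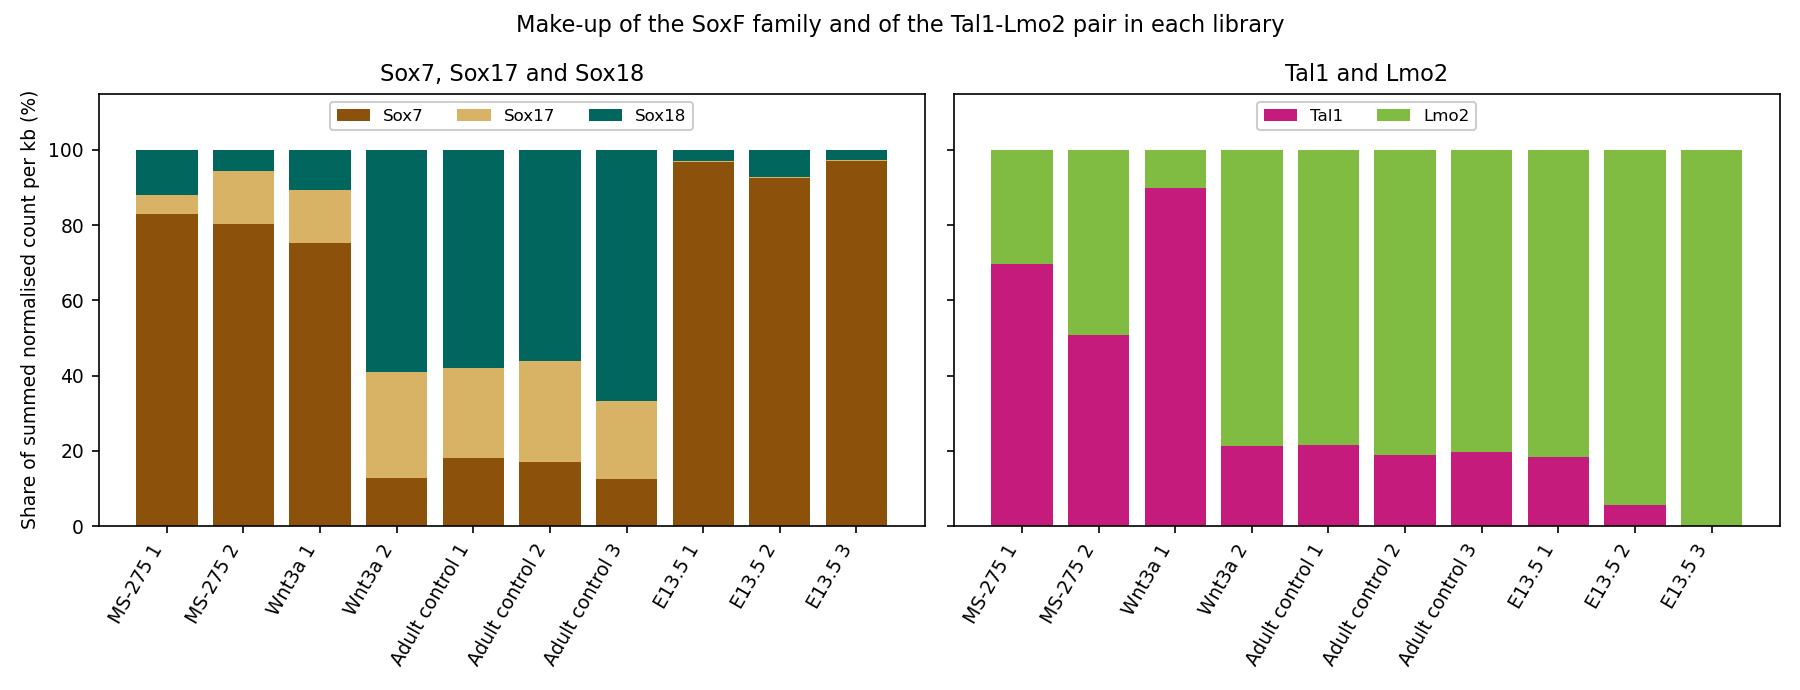
Stacked bars give each gene's share of the summed normalised count per kb of exon within the SoxF family and within the Tal1-Lmo2 pair, 1 bar per library. Sox7 makes up 75.2% or more of the SoxF sum in the MS-275 libraries, Wnt3a 1 and the E13.5 libraries, and at most 18.2% in Wnt3a 2 and the adult control libraries.

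Relatives and partners of the members moved in both directions. Of 16 other ETS genes tested, 5 were called lower and 3 higher with MS-275 than in adult control (median log2 difference 0.20). Over all genes 17.4% were called lower and 21.8% higher. By limma Elk4, another ternary complex factor, fell. It averaged 1217 ± 144 with MS-275 (SD, n = 2) and 3132 ± 356 in adult control (SD, n = 3). The log2 difference was -1.36 ± 0.21 (limma adjusted p = 0.00128), and the repressor Etv6 also fell (-1.69 ± 0.26). Ehf, an epithelial ETS gene with no read in adult control, rose to 9.73 on average, at least 3.39-fold higher against a floor of 3 reads per library. Of the 16, 3 were called higher and 7 lower in adult control than at E13.5, where 17.9% and 31.2% of all genes were. The smallest p were those of Etv5 (-3.47 ± 0.24), Etv1 (-5.46 ± 0.55) and Erf (-1.45 ± 0.17), all lower in adult control.

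Other Sox genes were called lower in adult control than at E13.5 for 10 of 12 and higher for 1, Sox13. Over all genes 31.2% were called lower and 17.9% higher. The neural Sox genes Sox2, Sox11 and Sox3 had no read in adult control and averaged 4538, 5110 and 483 at E13.5, at least 1581-fold, 1780-fold and 168-fold lower in adult control against the same floor. With MS-275, 2 of 12 were called higher and 2 lower than in adult control, where 21.8% and 17.4% of all genes were. Sox1, Sox2, Sox3, Sox11 and Sox21 were at 0 in every MS-275 and adult control library. Sox5 and Sox12 were also at 0 in adult control. None of these could fall, so the counts cannot be set against the 3 SoxF genes, which all fell. Sox13 averaged 409 ± 228 with MS-275 (SD, n = 2) and 3080.4 ± 430.5 in adult control (SD, n = 3). Its log2 difference was -3.02 ± 0.35 (limma adjusted p = 4.39e-04).

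Of 19 tested partners and relatives of Tal1 and Lmo2, 9 were called lower and 3 higher with MS-275 (median log2 difference -0.92). Over all genes 17.4% were called lower and 21.8% higher. The E proteins Tcf4 and Tcf12, which pair with Tal1, fell 5.11-fold and 4.17-fold (-2.36 ± 0.16 and -2.08 ± 0.22 on the log2 scale), and Ldb1, which joins the Lmo2 complex, 2.96-fold (-1.56 ± 0.16). The list did not fall as a whole. The 3 called higher were Ssbp2 (log2 difference 4.04), Ssbp3 (0.58) and Gata3 (5.09). Tcf3 was not called, at 1372 and 1485 with MS-275 and 1521, 1320 and 1102 in adult control. Ssbp2, Ssbp3, Gata3 and Tcf3 were picked for mention with their levels already known. Of the 19, 6 were called higher and 9 lower in adult control than at E13.5, where 17.9% and 31.2% of all genes were. Hhex, a homeobox gene of early endothelium, was higher in adult control (4.52 ± 0.39) and Lmo4, a relative of Lmo2, was lower (-3.37 ± 0.38). Lmo3 had no read in adult control and averaged 11.2 at E13.5, and its call was lost with DESeq2 (adjusted p = 0.129) and after quantile normalisation (adjusted p = 0.584).

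Of 36 endothelial genes with known ETS or SoxF binding in their enhancers or promoters, 23 were called lower and 1 higher with MS-275. Over all genes 17.4% and 21.8% were, and the median log2 difference of the 36 was -2.58. Nos3, endothelial nitric oxide synthase, fell 23.5-fold (-4.71 ± 0.40) and Emcn, an endothelial sialomucin, 85.1-fold (-6.41 ± 0.42). The gene that rose was Hey2, a Notch effector, named here after its values were seen, at 114 on average with MS-275 and 0.657 in adult control. With Wnt3a 0 of 36 were called. Against E13.5, 26 of 36 were called higher in adult control and 3 lower, where 17.9% and 31.2% of all genes were. The median log2 difference of the 36 was 4.59, and Nos3 was higher by 10.80 ± 0.36 and Emcn by 10.41 ± 0.38. Of the 36, 15 also belong to the endothelial identity list, so these counts overlap.

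Genes with the most similar profile over the 10 libraries were looked up among 11609 with a mean of at least 100. By Pearson r of the log2 values, Sox17 was most like Rapgef5 (0.996), Sox18 like Dipk2b (0.986), Erg like Gm49393 (0.997), Fli1 like Cpne8 (0.995), Ets1 like 4931406P16Rik (0.996), Ets2 like Clca2 (0.997), Elk3 like Echdc3 (0.993), Tal1 like Clec1a (0.989) and Lmo2 like Gfod2 (0.978). These values describe 10 libraries in 4 groups and share the gap between the adult and E13.5 libraries. Among the members themselves r ran from 0.59 (Erg with Lmo2) to 0.98 (Sox17 with Ets2), again over 10 libraries that share their groups and the gap between stages. Lmo2 was in the 3 lowest pairs, with Erg, Sox7 and Tal1.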

How the data were processed

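RNA was sequenced from 10 libraries, and 1 table with 1 line per gene was deposited. Per the methods, the authors checked reads with FastQC, aligned them to mm10 with STAR, counted them on protein-coding genes of GENCODE and normalised with DESeq2. The submitters' processing notes also name cutadapt and featureCounts. The deposited values are a signal: gene counts divided by 1 size factor per library by the authors (0.7198 to 1.2585 as recovered here). Every value was a whole number of reads within 0.01, which gave depths of 21116014 to 31733768 reads.

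The table held 21638 lines, of which 26 had a date in place of a symbol and were dropped (0.21% to 0.281% of each library), leaving 21612 genes, 2545 of them with no read. Sample columns not used numbered 0. Genes with at least 10 normalised counts in at least 2 libraries (15211) were tested on log2(normalised count + 1) with limma 3.58.1 (R 4.3.3), 1 mean per group over all 10 libraries, with Benjamini-Hochberg adjustment over all genes tested. A call needed an adjusted p under 0.05 and a log2 difference above 0.2. Folds are ratios of group means of normalised counts. edgeR 4.0.16 and DESeq2 1.42.0 were run on the recovered reads and called 5656 and 6611 genes for MS-275 against adult control, 0 and 0 for Wnt3a against adult control, 3771 and 5067 for MS-275 against Wnt3a, 7585 and 8108 for MS-275 against E13.5 and 7392 and 7840 for adult control against E13.5. Exon lengths and coordinates came from the GENCODE M21 annotation of GRCm38, which held 21411 symbols (99.07%). The scripts were tested on simulated data with independent libraries and no library sets, which checks the code and not the calls made here.

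The members and gene lists were chosen with earlier results of these data known. From each other list the 3 called genes with the smallest p and no overlap between groups were eligible to be named. Some further genes are named in the text outside this rule. P-values weigh a difference against the spread between these libraries, taken as independent although some pairs were near copies. Intervals of read shares and the floor of 3 reads per library cover counting error only. Other pseudocounts, filters, scalings, tools, sample choices, a replicate block and leaving out each library were tried. The closest profile is given for 9 of the 10 members, and that of Sox7 is not reported here.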

Additional observations from a re-analysis of the deposited data

How the results depend on the processing

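For adult control against E13.5 all 10 members stayed called under every alternative run, and for MS-275 against adult control 7 to 10 did with 1 library left out, 8 at a pseudocount of 0.5 (Erg and Tal1 lost), 9 on adult libraries alone (Sox7 lost) and 9 on the compared groups alone (Elk3 lost). For MS-275 against E13.5, in place of 5, 4 were called at a pseudocount of 10 (Fli1 lost), 4 on the compared groups alone (Tal1 lost) and 7 after quantile normalisation (Sox18 and Sox7 gained). Leaving out 1 library gave 3 (without MS-275 1) to 6 calls for MS-275 against E13.5, 4 (without Wnt3a 2) to 7 for MS-275 against Wnt3a (5 without MS-275 2), and 0 to 2 for Wnt3a against adult control (2 without Wnt3a 2, 1 without adult control 3). A group left with 1 library was assumed to vary like the others. MS-275 against Wnt3a gave 5 calls on adult libraries alone and 0 on the compared groups alone, where all genes gave 2763 and 123 calls in place of 4454. Over all genes, the compared groups alone gave 3855 calls in place of 5955 for MS-275 against adult control and 25 in place of 0 for Wnt3a. The alternatives on adult libraries alone and with the library set as a term were chosen after seeing the data, and that with a set from the file's headers was not run, since the headers name none.

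For MS-275 against E13.5 the sign turned for Elk3 (-0.33 without MS-275 1, 0.90 without MS-275 2), Ets1 (-0.063 at equal totals, and 0.26 without MS-275 1 to -0.19 without MS-275 2) and Lmo2 (0.69 after quantile normalisation, which moved the median of all genes to 0.19, against -0.16), and the cause was not tested. For Wnt3a against adult control, where no member was called, leaving out Wnt3a 1 or Wnt3a 2 gave 0.17 and -2.33 for Sox17, -0.37 and 0.68 for Sox7, 0.083 and -0.76 for Ets1, 0.81 and -1.35 for Fli1, -0.22 and 0.38 for Tal1, and -0.20 and 0.19 for Erg. Erg was also at 0.013 with DESeq2, 0.12 with the library set as a term and 0.0013 after quantile normalisation, and Elk3 at 0.0033 with the set as a term.

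The labels do not say that a replicate number marks a shared litter or day. The correlation of deviations of same-numbered libraries was 0.0661, -0.00325 and 0.0189 for adult control with E13.5, the only groups with 3 pairs. With 2 pairs each it was 0.396 and 0.396 for MS-275 with Wnt3a, 0.133 and 0.104 for MS-275 with E13.5, 0.312 and -0.258 for MS-275 with adult control, and 0.448 and -0.452 for Wnt3a with adult control, so the numbers were not taken as pairs. With the number as a replicate block, 10, 0, 10, 8 and 5 members were called for adult control against E13.5, Wnt3a against adult control, MS-275 against adult control, MS-275 against Wnt3a and MS-275 against E13.5, and Tal1 with Wnt3a was at -0.66. For MS-275 against Wnt3a the block lost Erg (adjusted p = 0.0693) and Lmo2 (0.0546) and gained Tal1 (0.0289).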
